A study of Torulaspora delbrueckii with 9 samples.

Results

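In the budding yeast Torulaspora delbrueckii, 58 sites in the interior of the chromosomes were bound by 3 subunits of the origin recognition complex (ORC) and lay less than 25 kb from another such site. They were taken from the peak lists of 6 chromatin immunoprecipitates (ChIP-seq). Overlapping peaks (1 bp or more) made up 542 regions, of which 198 had a peak in all 6 lists. Of these 198, 158 had their summit at least 100 kb from both chromosome ends, and 58 of the 158 had their nearest neighbour among the 198 within 25 kb, from summit to summit. The other 100 interior regions are called isolated below. The sites were thus chosen by detection in every list and by the distances between summits, and both are given as descriptions, not as results.

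The study immunoprecipitated Orc1 with a MYC tag (strains LRY3204 and LRY3211), Orc2 with a V5 tag (LRY3142 and LRY3143) and Orc4 with a V5 tag (LRY3138 and LRY3139), and compared them with 2 genomic inputs and 1 mock immunoprecipitate of the untagged strain JRY10156. All cultures grew in rich glucose medium at 30 °C and were cross-linked with formaldehyde, and the labels give no other treatment. The 2 libraries of a subunit are technical replicates in the series' own words but carry different strain numbers, and p-values below measure the spread between such libraries. Orc1 lists were called against input and the Orc2 and Orc4 lists against the mock, so that subunit, tag, antibody and control cannot be told apart. Names of Orc1 peaks include SIR and Kos3V5, words that the labels leave unexplained.

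In Saccharomyces cerevisiae, ORC binds replication origins throughout the cell cycle and, with Cdc6 and Cdt1, loads the MCM helicase onto them in G1. Only some loaded origins fire in a given S phase. Where origins lie close together, a fork from the one that fires first can copy its neighbour before that neighbour fires. The lists here show where ORC subunits were bound and how strongly they were enriched. Firing was not measured, so the places are called sites and not origins. Roles given for genes are those of their namesakes in S. cerevisiae.

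The 58 sites formed 30 pairs of direct neighbours, in 24 runs of 2 sites and 3 runs of 3. The remaining site, between PHO13 and the genome-maintenance ATPase gene MGS1 on chromosome 1, had its neighbour 23.8 kb away outside the interior. The summit distance within the 30 pairs was 14.8 kb in the median and ranged from 1.45 to 24.3 kb. It was under 5 kb in 3 pairs, 5 to 10 kb in 8, 10 to 20 kb in 10 and 20 to 25 kb in 9. Between the 2 summits lay 1 to 18 whole annotated genes, with a median of 8.5. Chromosome 6 held 11 of the sites, 57.9% of its 19 interior regions, whereas chromosome 7 held 2, or 13.3% of its 15. The density of interior regions varied less, from 1.92 per 100 kb on chromosome 5 to 2.29 per 100 kb on chromosome 3.

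**Figure D1:**
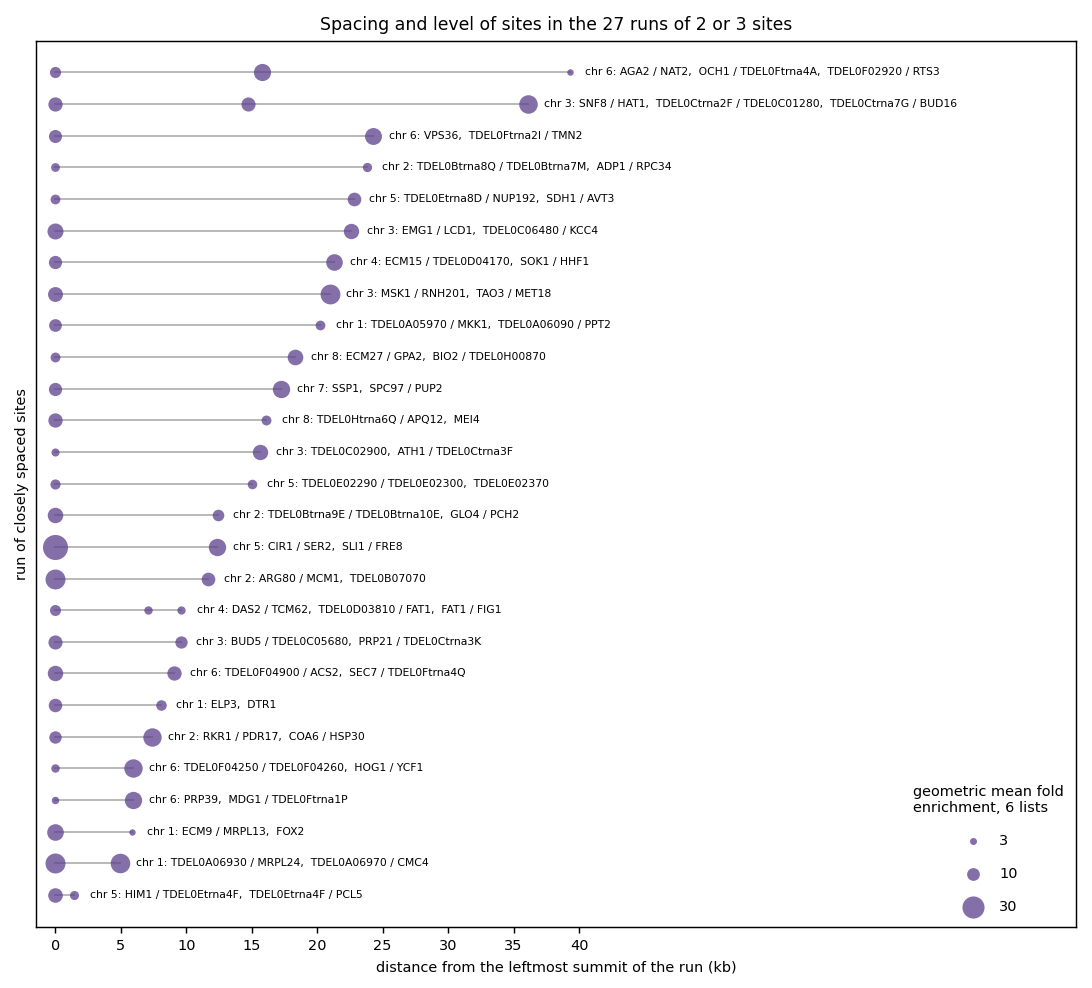
Each line is a run of 2 or 3 closely spaced sites, sorted by length. The horizontal axis gives the distance in kb from the leftmost summit of the run, the area of a point is proportional to the geometric mean fold enrichment over the 6 lists, and the nearest genes of each site are named from left to right. The shortest run spans 1.45 kb and the longest 39.3 kb.

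The 2 closest sites flanked a single tRNA gene. On chromosome 5, 1.45 kb separated a site at 538780 to 539401, between TDEL0Etrna4F and the cyclin gene PCL5, from one at 537040 to 538385, between HIM1 and the same tRNA gene. The right site had fold enrichments over control, as given by the authors' peak caller, of 2.99 and 2.84 in the Orc1 lists, 7.20 and 6.10 in the Orc2 lists, and 7.69 and 5.70 in the Orc4 lists. The left site had 7.13 and 9.04 with Orc1, 17.1 and 16.1 with Orc2, and 19.0 and 14.5 with Orc4. The right site was the lower one in every list. Its log2 ratio to the left site averaged -1.37 ± 0.08, a 2.59-fold difference (limma, adjusted p = 2.3e-07). Here and below, unless called an SD, ± gives the SE of the limma fit. That SE rests on the spread between the 2 libraries of each subunit and leaves out differences between subunits.

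Next in distance were sites on both sides of FAT1, which encodes a fatty acid transporter and very long-chain acyl-CoA synthetase. Their summits on chromosome 4 were 2.51 kb apart. The right site (700901 to 701452, between FAT1 and the mating gene FIG1) had Orc1 values of 4.40 and 3.79, Orc2 values of 3.95 and 4.06 and Orc4 values of 5.89 and 3.57. The left one (698418 to 698995, between TDEL0D03810 and FAT1) had 2.54 and 2.97 with Orc1, 6.31 and 5.38 with Orc2, and 5.81 and 4.42 with Orc4. Right was above left in both Orc1 lists and below it in both Orc2 lists and in 1 of the Orc4 lists. The mean log2 ratio over the subunits was -0.04 (95% interval -0.24 to 0.17) and did not pass (adjusted p = 0.724).

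A pair on chromosome 1 held 2 strong sites 4.93 kb apart, each near a gene for a mitochondrial protein. The right site, between TDEL0A06970 and CMC4 (1221695 to 1223273), had 10.8 and 9.03 with Orc1 and 30.4 to 40.3 with Orc2 or Orc4. The left site, between TDEL0A06930 and the mitochondrial ribosomal protein gene MRPL24 (1216277 to 1218186), had 8.66 and 13.9 with Orc1 and 31.5 to 41.9 with Orc2 or Orc4. The log2 ratio was -0.06 with a 95% interval of -0.33 to 0.20 (adjusted p = 0.619). The V5 lists gave nearly the same value at both sites, and the 2 Orc1 libraries ordered the sites in opposite ways.

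Close spacing also joined some of the weakest sites to sites that were strong in the Orc2 and Orc4 lists. Also on chromosome 1 and 5.82 kb apart, the right site in FOX2, the gene of a peroxisomal beta-oxidation enzyme (528892 to 529815), had Orc1 values of 2.26 and 2.15, Orc2 values of 2.17 and 2.65 and Orc4 values of 3.18 and 2.72. Its left partner between ECM9 and the mitochondrial ribosomal protein gene MRPL13 (523168 to 524276) had Orc1 values of 5.82 and 6.78, Orc2 values of 27.8 and 30.5 and Orc4 values of 32.2 and 22.2. The FOX2 site was the lower one in all 6 lists, with a mean log2 ratio of -2.76 ± 0.08 (adjusted p = 5.4e-09). On chromosome 6, 5.93 kb apart, the right site between MDG1 and TDEL0Ftrna1P (119336 to 120681) had 7.65 and 9.51 with Orc1 against 22.5 to 31.1 with Orc2 or Orc4. The left site in the splicing gene PRP39 (113792 to 114451) had 3.28 and 4.79 with Orc1 against 2.80 to 3.75 with Orc2 or Orc4. Right exceeded left in every list, with a mean log2 ratio of 2.42 ± 0.08 (adjusted p = 5.4e-09).

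Levels among the 58 sites spanned a wide range in every list. Fold enrichment ran from 2.24 to 16.1 in Orc1 library 1 and from 2.15 to 16.3 in Orc1 library 2. It ran from 2.17 to 59.9 and from 2.2 to 68.1 in the Orc2 libraries, and from 3.18 to 73.2 and from 2.46 to 52.6 in the Orc4 libraries. The 2 libraries of a subunit ranked the sites alike, with Spearman's rho of 0.89 for Orc1, 0.97 for Orc2 and 0.98 for Orc4 across the 58 sites, which are not independent replicates. The lowest of the 6 values lay in an Orc1 list at 51 of the sites, and the highest in Orc4 library 1 at 41. At the 100 isolated sites these counts were 95 and 77. The part of the different controls in these orders was not tested.

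**Figure D2:**
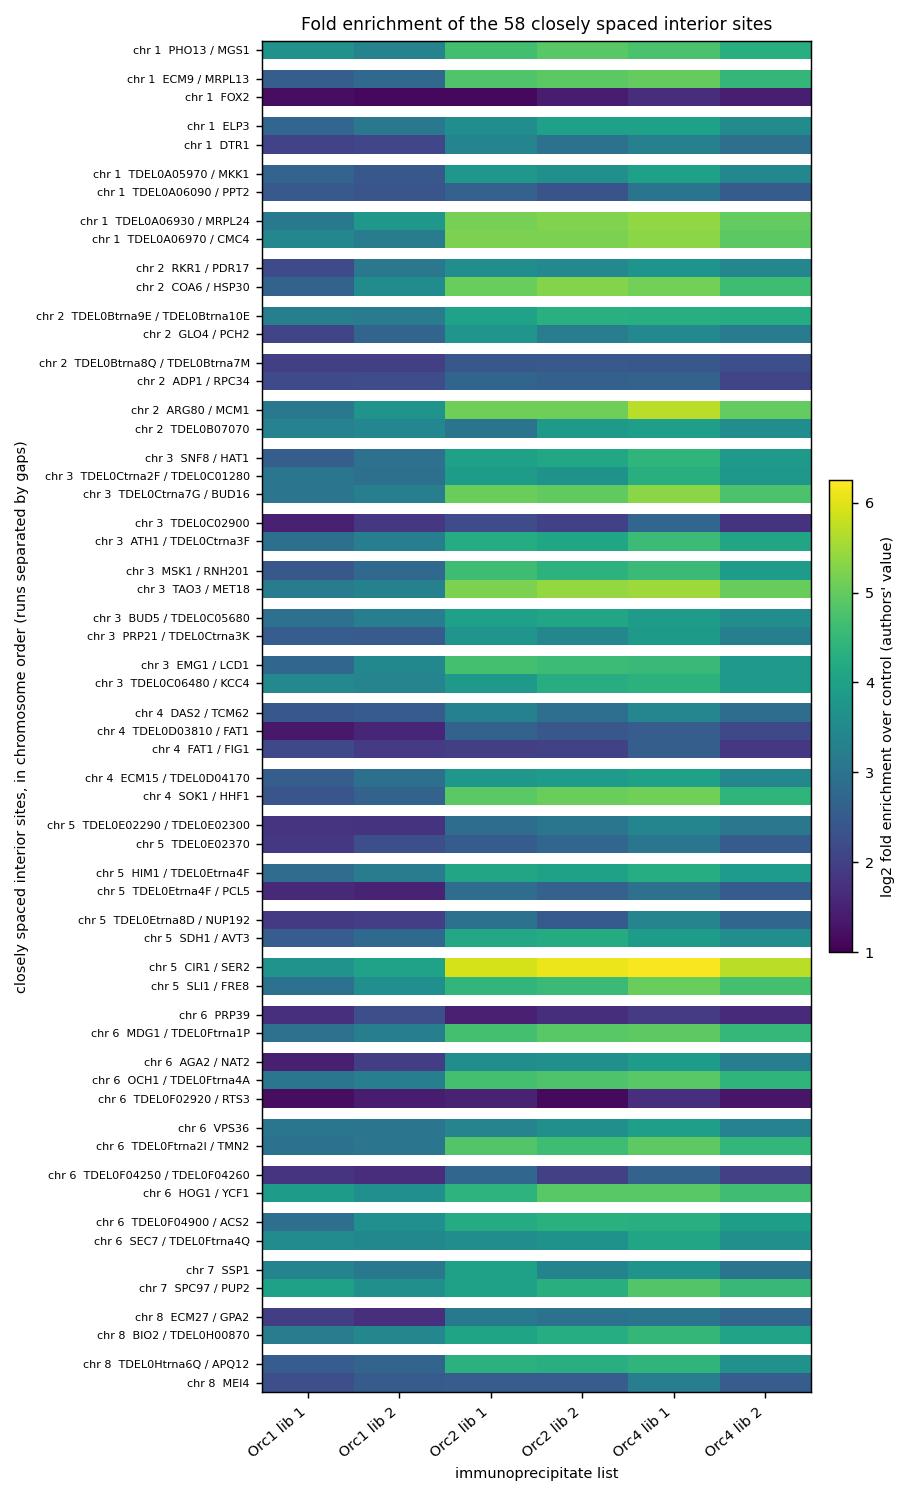
Each row is one of the 58 closely spaced interior sites, named by the genes on both sides of its summit or by the gene that holds it, and each column is 1 of the 6 lists. Colour gives the log2 of the authors' fold enrichment over control, and gaps separate the runs. The site between CIR1 and SER2 is the brightest row, with 52.6 to 73.2 fold in the V5 lists, and FOX2 is among the darkest, with 2.15 to 3.18 fold.

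The 5 sites with the highest minimum over the 6 lists all lay between genes. The highest minimum, 12.9, belonged to the chromosome 5 site between CIR1 and SER2, the gene of phosphoserine phosphatase, (930473 to 931771), where Orc1 gave 12.9 and 16.3, Orc2 gave 59.9 and 68.1 and Orc4 gave 73.2 and 52.6. Between the gamma-tubulin complex gene SPC97 and the proteasome gene PUP2 (chromosome 7, 179004 to 180466), Orc1 gave 16.1 and 12.3 against 15.8 to 28.4 in the other lists. Beside HOG1, the gene of the osmotic stress MAP kinase, and the vacuolar transporter gene YCF1 (chromosome 6, 802147 to 803594), the values were 14.7 and 12.1 with Orc1 against 21.0 to 29.6 with Orc2 or Orc4. The remaining 2 had their values closer together over the lists. One was between SEC7, which encodes an exchange factor of Golgi traffic, and TDEL0Ftrna4Q (chromosome 6, 931078 to 932284), with 10.9 to 17.1 over all 6 lists. The other was between TDEL0C06480 and the kinase gene KCC4 (chromosome 3, 1190497 to 1192266), with 10.3 to 20.5.

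At the low end, the FOX2 site had the lowest minimum, 2.15. The site between TDEL0F02920 and RTS3 (chromosome 6, 529856 to 530446) had Orc1 values of 2.24 and 2.64, Orc2 values of 2.82 and 2.2 and Orc4 values of 3.26 and 2.46. The left FAT1 site followed with a minimum of 2.54, and the PRP39 site was the fifth with 2.80. The fourth was of another kind: between AGA2, which encodes a subunit of the mating agglutinin, and NAT2 (chromosome 6, 490023 to 491417), Orc1 gave 2.74 and 3.83, whereas the other lists gave 9.34 to 14.5. Of the 58 sites, 19 had a minimum under 5 (32.8%) and 6 a minimum over 10 (10.3%). Among the 100 isolated sites, 25 were under 5 and 16 over 10.

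The 2 sites of a pair were often unequal, and pairs were read against all 190 pairs of neighbours among the 198 regions. A log2 ratio of the right over the left site cancels a constant factor of a list. It does not cancel a difference in spread between lists, or control signal that differs between sites. Of the 30 close pairs, 23 passed the test (limma over all 190 pairs, Benjamini-Hochberg adjusted p below 0.05), which is 76.7%, against 81.1% of all pairs. Right was the stronger site in 12 and left in 11. The order was the same in all 6 lists for 18 of 30 close pairs, against 56.8% of all pairs. The 2 sites differed over 2-fold in 12 of the 30, against 33.2% of all pairs. They differed over 4-fold in 4 of the 30 (13.3%), against 5.79% of all pairs. The median difference was 1.75-fold in close pairs and 1.65-fold in all pairs. The shares of pairs that passed the test or kept their order thus lay near those of neighbours at any distance, and the shares over 2-fold and over 4-fold were above them, on 12 and 4 pairs and with no test of the difference. Of the pairs over 4-fold, those with the FOX2, PRP39 and RTS3 sites were lost when only peaks with −log10 q of at least 10 were kept. That setting left 24 close pairs, so the higher share over 4-fold rests largely on weak sites.

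**Figure D3:**
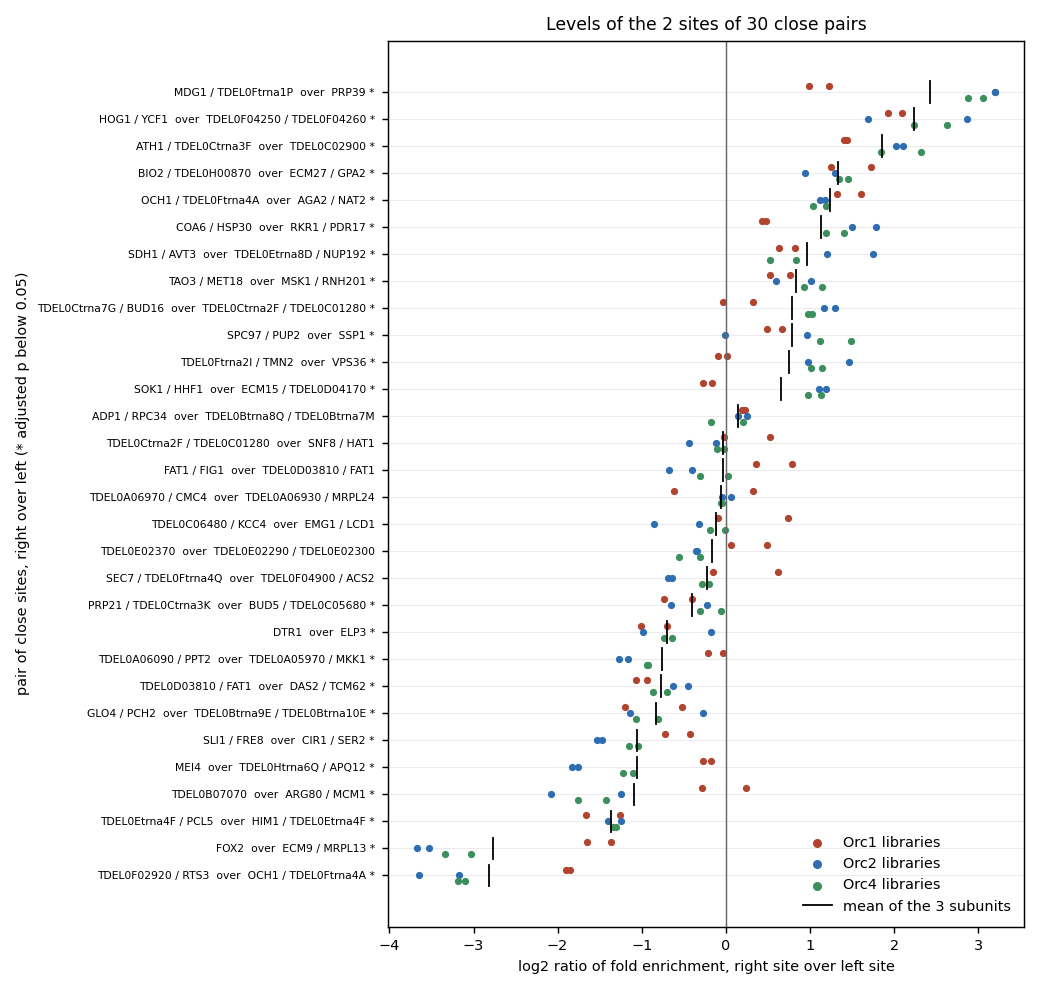
Each row is 1 of the 30 close pairs, and each point is the log2 ratio of fold enrichment, right site over left site, in 1 library. Colours give the subunit, the black bar is the mean of the 3 subunits, and an asterisk marks an adjusted p below 0.05. Means run from -2.81 to 2.42, and the Orc1 points often lie nearer to 0 than the others.

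Other large differences came from 3 further pairs. The largest of all 30, 7.02-fold, was on chromosome 6 over 23.5 kb: the right site between TDEL0F02920 and RTS3 (values above) stood against a left site between the mannosyltransferase gene OCH1 and TDEL0Ftrna4A (505710 to 507201) with 8.35 and 9.53 with Orc1 against 21.2 to 29.7 with Orc2 or Orc4 (log2 ratio -2.81 ± 0.08, adjusted p = 5.4e-09). The site between HOG1 and YCF1 was 4.72-fold above its left neighbour 5.95 kb away. That neighbour, between TDEL0F04250 and TDEL0F04260 (796481 to 797685), had Orc1 values of 3.45 and 3.20, Orc2 values of 6.51 and 4.04 and Orc4 values of 6.29 and 4.02. Its log2 ratio was 2.24 ± 0.14 (adjusted p = 2.8e-07). On chromosome 3, the site between the acid trehalase gene ATH1 and TDEL0Ctrna3F (526927 to 527981; 7.6 and 9.42 with Orc1, 17 to 24 with Orc2 or Orc4) was 3.62-fold above a site in TDEL0C02900 (511550 to 512208; 2.81 and 3.55 with Orc1, 3.41 to 6.67 with Orc2 or Orc4), with adjusted p = 3.65e-08.

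The levels of the 2 sites of a close pair showed little relation to each other, with a Spearman's rho of 0.01 between the mean log2 levels of the right and the left site over the 30 pairs. Between the distance and the size of the log2 ratio it was -0.11. Both are descriptions across pairs in the same 6 libraries, in which 6 pairs share a site with another.

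The 3 runs of 3 sites were of different build. On chromosome 4, the FAT1 sites continued to the left, 7.07 kb away, with a site between DAS2 and TCM62 (691330 to 692054) at 5.35 and 5.68 with Orc1 against 7.19 to 10.6 with Orc2 or Orc4, so that 3 sites, all below the median of the 198 regions in every list, lay within 9.58 kb. The middle site was 1.71-fold below this one (adjusted p = 7.1e-06). The longest run covered 39.3 kb of chromosome 6, with its strong site beside OCH1 in the middle, 2.36-fold above the AGA2 site on its left (adjusted p = 3.2e-07) and 7.02-fold above the RTS3 site on its right. On chromosome 3, over 36.1 kb, the rightmost site was the highest. It lay between TDEL0Ctrna7G and BUD16 (238863 to 240199), with 8.19 and 9.47 with Orc1 against 27.3 to 40.4 with Orc2 or Orc4. The middle site, between TDEL0Ctrna2F and TDEL0C01280 (217878 to 218708), had 8.39 and 7.56 with Orc1 against 12.9 to 19.9 with Orc2 or Orc4. The left one lay between SNF8, which encodes a subunit of the ESCRT-II sorting complex, and the histone acetyltransferase gene HAT1 (203181 to 204036), with 5.86 and 7.70 with Orc1 against 14.2 to 21.4 with Orc2 or Orc4. The last 2 did not pass as different (log2 ratio of the middle over the left site -0.03, 95% interval -0.24 to 0.18, adjusted p = 0.763).

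Relative to the median of each list over the 198 regions, Orc1 stood higher than Orc2 and Orc4 at 12 of the 58 sites and lower at 19 (limma over all 198 regions, adjusted p below 0.05). All 198 regions gave 21.7% higher and 29.3% lower, against 20.7% and 32.8% of the 58. The median difference was -0.15 on the log2 scale at the 58 sites and -0.11 over all regions. The direction went with the strength of the site in the Orc2 and Orc4 lists. All 12 sites called higher were below the median of those lists, and 17 of the 19 called lower were above it. Over all 198 regions this held for 42 of the 43 called higher and 54 of the 58 called lower. The calls are differences from those same lists, so this sorting is partly built in and is no separate result. The SD of log2 fold enrichment across the 58 sites was 0.68 for Orc1, against 1.08 for Orc2 and 1.02 for Orc4, so that strong and weak sites lay closer together in the Orc1 lists. When every list was scaled to the same spread, 6 sites were called higher and 23 lower, of which 5 and 18 were among the first calls. The part of the controls in this was not tested, since each subunit has only one kind.

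**Figure D4:**
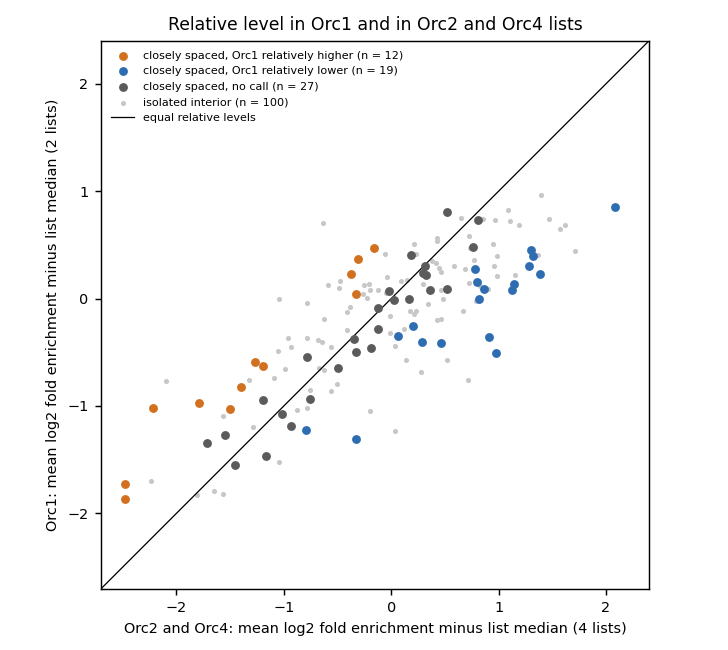
The vertical axis gives the mean log2 fold enrichment in the 2 Orc1 lists and the horizontal axis that in the 4 Orc2 and Orc4 lists, each after subtracting the list median over the 198 regions. Large points are the closely spaced sites, coloured by the call of the Orc1 contrast (12 higher, 19 lower), small grey points are the 100 isolated sites, and the line marks equal relative levels. Higher calls lie at the weak end and most lower calls at the strong end.

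The largest relative deficit of Orc1 among the 58 was between SOK1 and HHF1, the gene of histone H4 (chromosome 4, 784713 to 786875). Orc1 had 5.17 and 6.22 there, Orc2 30.1 and 33.0, and Orc4 34.4 and 21.3. Both Orc1 values were thus below the median of their list and all 4 others above it, with a log2 difference of -1.48 ± 0.11 (adjusted p = 6.8e-05). Deficits of -1.26 ± 0.10 beside MRPL13 (adjusted p = 7.9e-05), -1.23 ± 0.11 between CIR1 and SER2 (adjusted p = 0.000109) and -1.05 ± 0.19 between COA6 and HSP30 (adjusted p = 0.00252) came from sites already strong in the V5 lists. So did that of -1.16 ± 0.11 between TAO3 and MET18, which has a role in iron-sulfur protein assembly (chromosome 3, 809290 to 810368; adjusted p = 0.000109), where Orc1 gave 9.11 and 9.71 against 32.6 to 44.5. These 5 differences also passed after scaling the lists to the same spread, with values of -1.53 at HHF1, -1.28 beside MRPL13, -0.94 beside MET18, -0.92 beside HSP30 and -0.75 at CIR1 and SER2.

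Orc1 was relatively highest at the PRP39 site. Orc1 gave 3.28 and 4.79 there, against 2.80 to 3.75 in the other lists, so that 1 of the 2 Orc1 values lay within the range of the others. After centring, the log2 difference was 1.2 ± 0.15 (adjusted p = 0.00052), and without centring it was 0.31 and did not pass. It was 0.82 ± 0.14 at the right FAT1 site (adjusted p = 0.00173), 0.76 ± 0.14 at the RTS3 site (adjusted p = 0.00258), 0.68 ± 0.13 between TDEL0A06090 and PPT2 (chromosome 1, 1068392 to 1069518; adjusted p = 0.00327) and 0.68 ± 0.20 in TDEL0B07070 on chromosome 2 (adjusted p = 0.0219). After scaling to the same spread, PRP39 (0.64, adjusted p = 0.0259) and TDEL0B07070 (0.76, adjusted p = 0.0149) still passed. TDEL0A06090 with PPT2 passed narrowly (0.36, adjusted p = 0.0496). The right FAT1 site (0.33, adjusted p = 0.0998) and the RTS3 site (-0.041, adjusted p = 0.85) did not pass. The TDEL0B07070 call was lost when either Orc1 library or Orc4 library 1 was left out, with differences of 0.64 to 0.71, and when Orc1 was set against Orc4 alone (0.54), but not against Orc2 alone (0.82).

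A further test asked whether the log2 ratio of 2 close sites differed between Orc1 and the mean of Orc2 and Orc4. It did not test whether the order of the sites differed. The ratio differed in 15 of the 30 close pairs (50%), against 51.1% of all 190 pairs (limma, adjusted p below 0.05). In 14 of the 15 the ratio was smaller in size for Orc1, against 75 of the 97 called among all pairs. The 2 mean ratios had opposite signs in 5 of the 15. With the lists scaled to the same spread 16 close pairs were called, 12 of them in common. Over the 30 pairs the median size of the log2 ratio was 0.57 for Orc1 and 1.09 for Orc2 and Orc4. Over all 190 pairs it was 0.53 and 0.83. The largest such differences were at PRP39 with its right neighbour (log2 ratio 1.10 for Orc1 and 3.08 for the others, difference -1.98 ± 0.16, adjusted p = 5.7e-05) and at FOX2 over its left neighbour (-1.51 and -3.39, difference 1.88 ± 0.18, adjusted p = 6.05e-05). The RTS3 site over the OCH1 site had -1.88 and -3.28 (difference 1.41 ± 0.18, adjusted p = 0.000245). After scaling to the same spread these differences were -1.30 at PRP39, 1.06 at FOX2 and 0.47 at RTS3 (limma, adjusted p = 0.00202, 0.00429 and 0.0417). The weak sites of these pairs were lost when only peaks with −log10 q of at least 10 were kept, so the differences could not be repeated there.

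Other pairs differed in whether the ratio lay near 0. On chromosome 2, 11.6 kb separated TDEL0B07070 (1246603 to 1247978) from the site between ARG80 and MCM1, which both encode MADS-box transcription factors (1234259 to 1235780). The right site, TDEL0B07070, had Orc1 values of 10.1 and 10.7, Orc2 values of 8.13 and 14.2 and Orc4 values of 15.2 and 11.7. The left site had Orc1 values of 8.56 and 13, Orc2 values of 34.3 and 33.9 and Orc4 values of 51.5 and 31.6. The right site was the lower one in every Orc2 and Orc4 list, and the 2 Orc1 libraries ordered the sites in opposite ways. The mean log2 ratio was -0.03 in Orc1 and -1.63 in the others, a difference of 1.6 ± 0.26 (adjusted p = 0.000733).

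Histone genes marked another such pair, 21.3 kb apart on chromosome 4. The right site was the one between SOK1 and HHF1 described above, which also lay within 1000 bp of the histone H3 gene HHT1. The left site, between ECM15 and TDEL0D04170 and within 1000 bp of the H2B gene HTB2 (763485 to 764400), had 5.81 and 7.52 with Orc1 against 10.8 to 15.7 with Orc2 or Orc4. The HHF1 site was the lower of the 2 in both Orc1 lists and the higher in all 4 other lists. The log2 ratios were -0.22 and 1.10, and their difference was -1.32 ± 0.16 (adjusted p = 0.000191).

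Closely spaced sites had somewhat lower median levels than isolated ones. Median fold enrichment was 6.07 at the 58 sites against 8.0 at the 100 isolated sites in Orc1 library 1, and 7.63 against 8.35 in Orc1 library 2. It was 14.4 against 14.5 and 15.1 against 16.5 in the Orc2 libraries, and 15.8 against 18.5 and 11.8 against 13.2 in the Orc4 libraries. The difference in median log2 level averaged -0.18 ± 0.13 (SD over the 6 lists), or 0.884-fold, and was below 0 in 6 of 6, from -0.40 to -0.01. It was -0.33 at a spacing limit of 30 kb and -0.27 without Orc2 library 1. It carries no test, since the same regions were measured in all lists. The 2 sets overlapped over nearly their whole range. The SD of the log2 level was 0.68, 1.08 and 1.02 for Orc1, Orc2 and Orc4 at the 58 sites, and 0.63, 0.86 and 0.88 at the isolated ones.

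**Figure D5:**
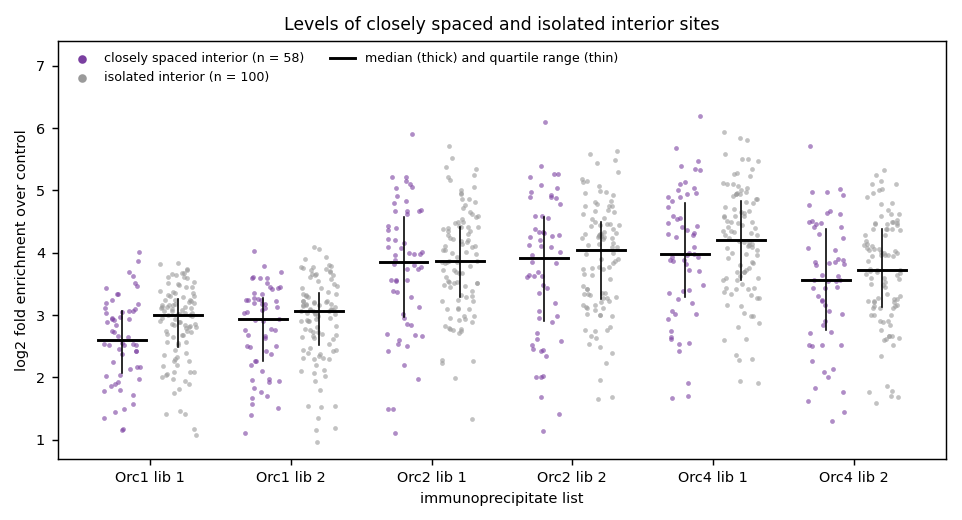
Points are sites, with closely spaced interior sites to the left of isolated ones in each list. The vertical axis is the log2 fold enrichment over control, thick bars are medians and thin bars span the quartiles. Medians of closely spaced sites lie between 0.01 and 0.40 log2 units below those of isolated sites.

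Peaks of the closely spaced sites were also slightly narrower in the median, with widths summed where a list had several peaks in a region. Widths were 888 against 992.5 bp at isolated sites in Orc1 library 1, 905.5 against 986 bp in Orc1 library 2, 798 against 848.5 and 739.5 against 833.5 bp in the Orc2 libraries, and 936.5 against 938.5 and 817.5 against 845.5 bp in the Orc4 libraries. Mean summits of Orc1 lay a median of 57.5 bp from those of Orc2 and Orc4 at the 58 sites and 47 bp at the isolated ones. They were over 100 bp apart at 4 and 9 sites in these sets, at most 140 bp among the closely spaced ones, in PRP39.

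Most closely spaced sites lay between genes, with some inside them. The summit was outside annotated genes at 48 of the 58 (82.8%, exact 95% interval 70.6% to 91.4%), against 93 of the 100 isolated sites (93.0%, 86.1% to 97.1%). The intervals overlap. With the centre of the merged region in place of the summit, the shares were 69.0% (40 of 58) and 69.0% (69 of 100). The 10 summits within genes were in FOX2, ELP3, DTR1, TDEL0B07070, TDEL0C02900, TDEL0E02370, PRP39, VPS36, SSP1 and MEI4. ELP3 encodes the catalytic subunit of Elongator, VPS36 a subunit of ESCRT-II, and MEI4 a factor of meiotic recombination. Where the summit was between genes, the gap that held it was 639 bp in the median and 37 to 4475 bp long, against 409 bp at isolated sites. The shortest gap was left of FAT1, and the longest was on chromosome 5 between TDEL0E02290 and TDEL0E02300 (446050 to 447038), with 3.47 and 3.42 with Orc1 against 7.27 to 10.4 with Orc2 or Orc4.

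At 16 of the 58 sites a tRNA gene was at most 1000 bp away (27.6%, exact 95% interval 16.7% to 40.9%), against 30 of the 100 isolated ones (30%, 21.2% to 39.98%). Such sites included the strong ones beside MCM1, BUD16 and OCH1 and the weak one beside PCL5. Their minimum fold enrichment over the 6 lists had a median of 7.63 (2.84 to 10.9), against 5.58 (2.15 to 12.9) at the other 42 closely spaced sites. Of 30 genes of origin licensing and firing found in the gene table (such as the ORC and MCM subunits), none lay within 1000 bp of a closely spaced site and 4 did so of any of the 198 regions. Of 8 origin-linked and silencing factor genes, again none lay near the 58, and 3 near any of the 198. The 3 histone genes near any of the 198 regions (HHF1, HHT1 and HTB2, of 10) were all beside the chromosome 4 pair above. Shares of 0 of 58 allow up to 6.16% (upper exact 95% limit).

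Further peaks lay between the sites of most pairs. In 22 of the 30 pairs at least 1 further merged region, not found in all 6 lists, fell between the summits, 32 regions in all. Of these, 13 were in 1 list alone, 10 in 2 lists, 7 in 3 and 2 in 4. Their highest fold enrichment was 2.29 in the median and 1.52 to 6.2 overall. The strongest was beside the HTB2 site (chromosome 4, 764522 to 765349), in 4 lists. The HTB2 site itself ended at 764400. This strongest region, at 6.2, was above every value of the FOX2, RTS3 and PRP39 sites, so not all such regions were weaker than the sites. Regions of this kind also lay between many neighbours farther apart, so their presence is not particular to close pairs.

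The limit of 25 kb fell in a continuous range of distances. Just inside it were the sites in VPS36 and between TDEL0Ftrna2I and TMN2 on chromosome 6, 24.3 kb apart, with minimum fold enrichments of 8.20 and 7.77. The first isolated sites, in the meiotic recombination gene REC114 and between SUB2 and FDO1 on chromosome 7, were 25.025 kb apart, with minima of 4.23 and 4.27. Nearest to a chromosome end was the KCC4 site, at 100.6 kb.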

How the data were processed

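The data were 6 peak lists as deposited by the authors, 1 per immunoprecipitate. Per the submitters' processing notes, the tools included MACS2 2.2.7.1, Bowtie2 2.3.4.1 and cutadapt 2.10. Their settings and the build were not given in the sources used here. Each deposited peak has a fold enrichment (a ratio to its control), −log10 p and −log10 q, and summit; the deposited score was not analysed. Without read counts, depth is unknown. Intervals of shares cover counting error over regions only, and those of log2 ratios rest on the spread between libraries. The word subsample in the peak names is not explained, and the strain number of their control differs from the labels'.

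Where a list had several peaks in a region, the one of highest −log10 q was used except for widths, which were summed. Summits were averaged over the lists. Genes are those of ASM24337v1 (5174 genes, no strand). Numbering was checked: in 8 of 8 sequences, the same-numbered chromosome had the most summits outside genes (65.5% to 76.3%, other chromosomes 20.7% in the median). Positions are 1-based, and chromosome ends are the last peak position.

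The log2 fold enrichment was fitted with limma 3.58.1 (group means, eBayes, Benjamini-Hochberg over all 198 regions or 190 pairs), and the fit was tested on simulated data. Alternatives were the spacing and interior limits, overlap, threshold, centring, pseudocount, left-out libraries and a replicate block. Scaling the lists to the same spread was chosen after seeing the data. Sites named were the closest pairs, the highest and lowest minima, the largest called differences, the longest runs and those near listed genes or limits; the other 2 runs of 3, the sites within genes and the longest gap were named after their values were seen. The sites and lists were chosen with earlier results of these data known.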

Additional observations from a re-analysis of the deposited data

Results flagged for a closer look

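In 15 close pairs the log2 ratio of right over left site differed between Orc1 and the mean of Orc2 and Orc4 (limma, adjusted p from 5.7e-05 to 0.0248). The difference was positive for FOX2 over its left site (1.88), PPT2 over MKK1 (0.95), TDEL0B07070 over ARG80 and MCM1 (1.6), the right over the left FAT1 site (0.91), TDEL0E02370 over TDEL0E02300 (0.67), FRE8 over SER2 (0.73), RTS3 over OCH1 (1.41), SEC7 over ACS2 (0.69) and MEI4 over APQ12 (1.26). It was negative for HSP30 over PDR17 (-1.02), BUD16 over TDEL0C01280 (-0.97), ATH1 over TDEL0C02900 (-0.65), HHF1 over ECM15 (-1.32), the site beside MDG1 over PRP39 (-1.98) and TMN2 over VPS36 (-1.19). With the lists scaled to the same spread, ATH1 over TDEL0C02900 (0.006, limma adjusted p = 0.981) and FRE8 over SER2 (0.40, adjusted p = 0.0856) did not pass. Nor did SEC7 over ACS2 (0.73, adjusted p = 0.0591). In 5 of the 15 the 2 mean ratios had opposite signs, against 33 of the 97 called among all pairs. These 5 were at FAT1, ECM15 and HHF1, TDEL0E02370, VPS36 and TMN2, and ACS2 and SEC7. The 2 Orc1 libraries differed in sign at VPS36 and TMN2 (-0.098 and 0.011) and at ACS2 and SEC7 (0.62 and -0.15). At FAT1, Orc4 library 1 (0.02) had the sign of the Orc1 lists. No group had enough libraries to look for a single library far from the others.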

How the results depend on the processing

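The number of closely spaced sites stayed within 1.5 times 58 under every alternative tried, from 41 at a spacing limit of 20 kb to 77 at 30 kb, and from 58 to 62 when each library was left out. Without any centring (the median over all 198 regions was then -1.0, against -0.11), 0 sites were called higher in Orc1 and 47 lower, and the differences at the right FAT1 site (-0.070), RTS3 (-0.13), PPT2 (-0.21) and TDEL0B07070 (-0.21) turned negative. With lists scaled to the same spread 6 sites were called higher and RTS3 turned to -0.041, and at a spacing limit of 20 kb 7 were called higher, fewer sites being counted. With only peaks of −log10 q of at least 10, 48 sites and 24 close pairs were left. The sites in FOX2, PRP39 and TDEL0C02900 and the RTS3 site were not among them, so the results named for them could not be repeated. The gap to isolated sites was -0.33 log2 at a limit of 30 kb, and the share of summits outside genes was 69.0% with region centres; the cause was not tested. Leaving out each library gave 8 to 13 sites higher and 16 to 19 lower in Orc1, 23 to 26 unequal pairs, 13 to 17 pairs with an Orc1 difference and a gap of -0.27 to -0.12. Replicate numbers do not pair the samples by the labels (correlations of deviations -0.15 to 0.19 over 198 regions), and with the replicate block the counts were 12 higher, 19 lower, 23 unequal pairs and 15 pairs with an Orc1 difference.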
